A study of Mus musculus with 6 samples.

Results

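The genes of the replication-independent histone variants were described in primary renal tubular epithelial cells (TECs) of the mouse: H2afz and H2afv (H2A.Z), H2afy and H2afy2 (macroH2A), H2afx (H2A.X), H2afj (H2A.J), H3f3a and H3f3b (H3.3) and H1f0 (H1.0). The set was named by symbol, from the variants that carry a gene name outside the clustered histone genes; the rule uses no measured value, but the set was proposed with earlier results of these data known. All 9 were among the 30315 genes listed in the table. RNA-Seq was done on 6 libraries of C57BL/6 kidney TECs, 3 transfected with siSox9, a small interfering RNA against the transcription factor Sox9, and 3 with siNC, the control siRNA. Every library came from cells transfected 12 h before hypoxia/reoxygenation (H/R), a model of ischemic injury in culture with 6 h at 1% O2 in medium without glucose and then 18 h of reoxygenation, so the comparison holds no uninjured cells. The comparison asks which transcripts differ when Sox9 is knocked down in injured TECs. The study lists a single siRNA sequence against Sox9, so effects of losing Sox9 and other effects of that siRNA cannot be told apart. Nothing in the labels says whether replicates came from separate cultures or animals, so the p-values measure the spread between these libraries only.

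Histones wrap DNA into nucleosomes. Most histone mRNA is made in S phase from clustered genes, has no introns and ends in a stem-loop in place of a poly(A) tail. Replication-independent variants are in general transcribed outside S phase too, and can be put into chromatin then, though not every member fits this contrast in full. Some of them, such as H3.3 and H2A.Z, are placed by their own chaperones. H2A.Z sits at promoters and enhancers, macroH2A carries a large additional domain and is known from repressed chromatin, H3.3 fills nucleosomes at active genes, H2A.X is phosphorylated at DNA breaks, and H1.0 is a linker histone known to build up in quiescent and differentiated cells.

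The gene models of the 9 genes differed in how far they resembled the clustered kind. In GENCODE M21 the longest coding transcript had 9 exons for H2afy and H2afy2, 6 for H3f3b, 5 for H2afz and H2afv, 4 for H3f3a, and 1 each for H2afx, H2afj and H1f0. A match to the histone stem-loop, GGNNCTNNNNAGNNCC on the coding strand within 100 bases after the stop codon, was found in 1 of the 9, H2afx, against 67.2% of 67 genes named as Hist cluster genes and 0.307% of 21834 other coding genes. The H2afx match, at bases 547 to 562 of a transcript of 1384, is shown because it is the one place where a member shares the ending of the clustered genes. Capitals mark the match.
H2afx: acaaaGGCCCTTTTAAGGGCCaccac
A match is a description of the sequence only, and whether the libraries were made from poly(A) RNA is not given in the sources used here.

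Both H3.3 genes encode the same 136 residues, and the H2A.Z genes encode 128 residues that differ at 3, while their coding sequences have diverged. H3f3a and H3f3b differed at 95 of 408 coding bases (76.7% identical), and H2afz and H2afv at 80 of 384 (79.2% identical). The first 60 coding bases are shown, since such differences let reads from the coding part be told apart between genes with near-identical proteins. Capitals mark the 13 bases that differ within each pair, counted from the start codon.
H2afz: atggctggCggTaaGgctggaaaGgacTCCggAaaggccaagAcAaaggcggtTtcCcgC
H2afv: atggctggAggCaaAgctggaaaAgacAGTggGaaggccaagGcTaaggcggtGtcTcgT
H3f3a: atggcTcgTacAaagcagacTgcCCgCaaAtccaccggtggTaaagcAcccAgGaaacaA
H3f3b: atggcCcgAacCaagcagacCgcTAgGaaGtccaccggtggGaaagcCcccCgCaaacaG
Reads still had places to be shared with other genes. Of all 50-base stretches of a gene's annotated transcripts, 35.4% for H2afz also occurred in 6 other genes, 27.1% for H3f3a occurred in 193 others that included H3f3c, and 15.4% for H2afy2 occurred in 3 others that included Aifm2, which overlaps its end on the opposite strand. For the other 6 members the share lay between 0 for H2afv and 9.7% for H2afx, whose 43 partners included clustered H2A genes. On the opposite strand the annotation also has Gm47071 across H2afy, Gm17275 and H3f3aos across H3f3a, Gm49544 across H1f0 and small RNA models within H2afx and H2afj, while H2afz, H2afv and H3f3b had no overlapping gene. How reads that fit several genes, or a gene on the opposite strand, were assigned is not given in the sources used here, so the levels of H2afz and H3f3a in particular are uncertain in absolute terms.

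The knockdown and the cell type were checked first. Sox9 was at 8.93, 8.61 and 9.07 FPKM (fragments per length of exon and per mapped total) in the siSox9 libraries and 25.7, 26.5 and 25.6 FPKM in the siNC libraries, which leaves 34.2% of the control level (log2 fold change -1.45, adjusted p = 7.03e-06 from limma). The 7 tubular epithelium markers summed to between 3603 and 3923 FPKM in every library, with 1 of 7, Cdh16, higher after siSox9. Most of this sum came from the keratins Krt8, at 2029 to 2190 FPKM, and Krt18, at 1155 to 1292 FPKM. Pax8 was at 13.9 to 15.9 FPKM and Pax2 at 9.72 to 12.8 FPKM. The proximal tubule markers Slc34a1 and Slc5a2 and the distal markers Umod, Slc12a3 and Aqp2 stayed under 0.1 FPKM. Of the other segment markers, Lrp2 was at 2.06 to 2.58 FPKM and Cubn at 0.419 to 0.515 FPKM, Aqp1 reached 0.399 FPKM and Slc12a1 reached 0.133 FPKM. General epithelial markers were thus high, and markers of mature segments were low or near 0. Whole-read totals recovered from the values ranged from 23893205 to 25725741.

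All 9 genes were expressed above the minimum of 1 FPKM used for testing, and 5 of 9 fell after siSox9 while 0 rose: H2afy2, H2afz, H2afv, H1f0 and H3f3b. Over all 12009 genes tested 30.4% were called, 17.6% lower and 12.8% higher (limma on log2(FPKM + 1), adjusted p under 0.05). The groups did not overlap for 6 of 9 members, all with the siSox9 libraries lower, against 46.3% of all genes, and 26.1% of all genes with siSox9 lower. The median log2 fold change of the 9 was -0.16, and that of all genes tested was -0.01. In bulk RNA, fewer cells that express a gene and less RNA per cell cannot be told apart. The split of calls over all genes, 1532 higher and 2118 lower, moved to 1959 and 1765 when each library was centred on its median and to 1812 and 1797 after quantile normalization; the direction of each of the 9 members was the same under all of these.

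**Figure D1:**
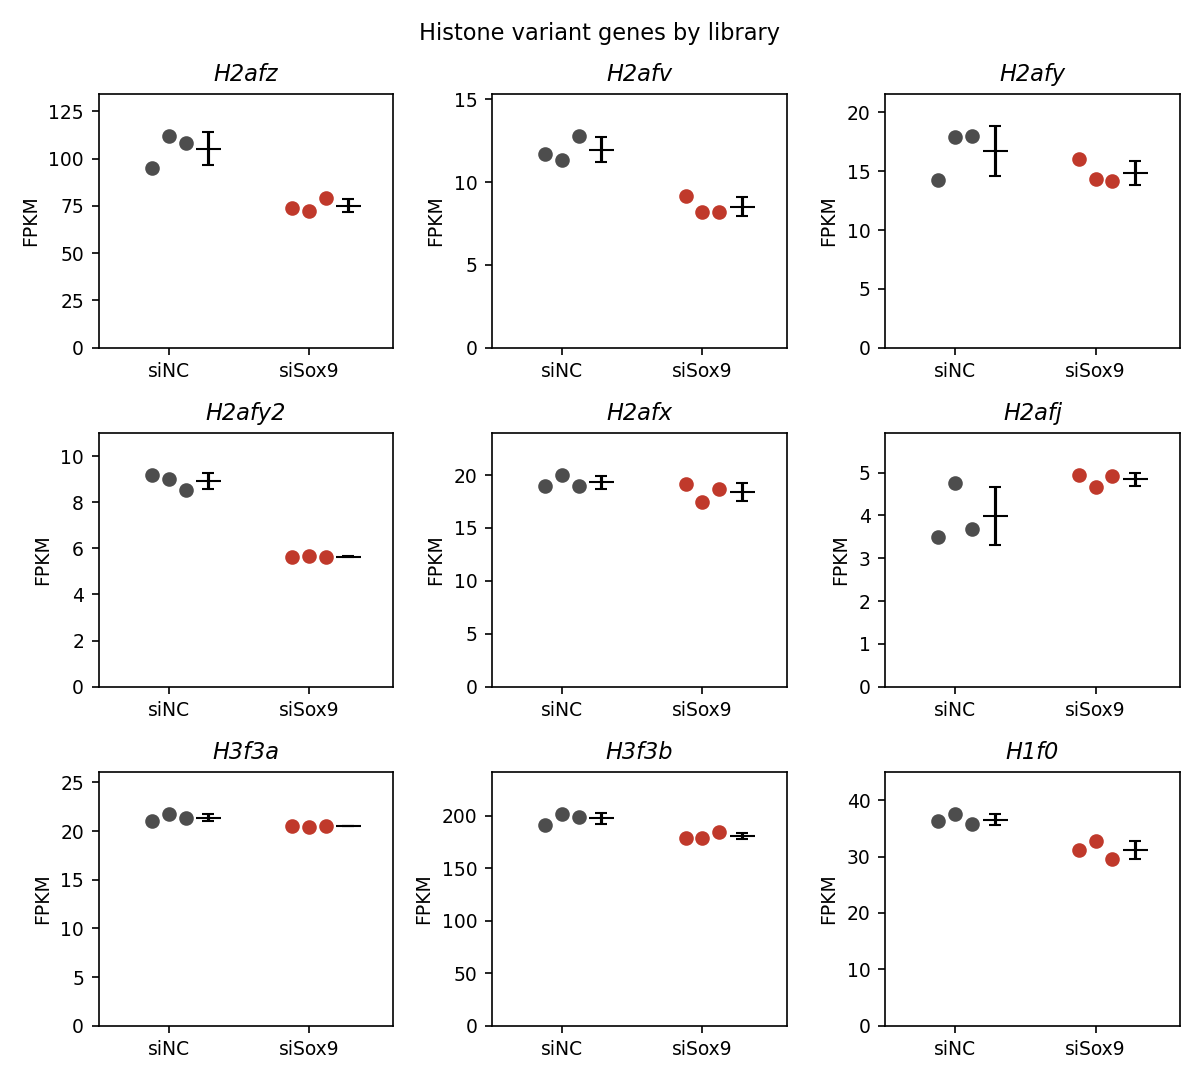
FPKM of each histone variant gene (vertical axes, each from 0) in the 3 siNC (grey) and 3 siSox9 (red) libraries, with replicates 1 to 3 from left to right and the mean ± SD as a black bar beside them. The siSox9 points lie below all siNC points for H2afz, H2afv, H2afy2, H3f3a, H3f3b and H1f0, and the groups overlap for H2afy, H2afx and H2afj.

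The levels spanned 42.9-fold per length of exon. H3f3b was highest, above 98.4% of the genes tested in mean FPKM, followed by H2afz, H1f0, H3f3a, H2afx, H2afy, H2afv, H2afy2 and H2afj. This order was the same in all 6 libraries, and in neither group did the ranges of neighbours in it overlap. It depends on the length used: the exons of H2afy together cover 6809 bases while its longest coding transcript has 2046, so a count per base of that transcript would be 3.33 times as high, whereas for the other 8 genes this factor lay between 1 and 1.66.

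The H2A.Z pair fell by the same proportion. H2afz, the main H2A.Z gene, lies on the plus strand at chr3:137864487-137866922 (GRCm38, the build that the table's positions matched) and was at 73.9, 72.5 and 78.9 FPKM after siSox9 against 95.3, 112.0 and 108.0 FPKM after siNC. Every siSox9 library was below every siNC library. The mean was 75.1 ± 3.39 against 105.1 ± 8.74 FPKM (SD, n = 3 each), or 71.4% of control, with a log2 fold change of -0.48 (SE 0.06, 95% interval -0.63 to -0.33, adjusted p = 0.00191 from limma). Of all genes tested, 2.86% had a lower log2 fold change. The values rest on 3268 to 3376 recovered reads per siSox9 library and 4202 to 4805 per siNC library.

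H2afv, the second H2A.Z gene, lies on the minus strand at chr11:6427229-6444443 and had a much lower level. It was at 9.16, 8.20 and 8.20 FPKM after siSox9 and at 11.7, 11.4 and 12.8 FPKM after siNC, again with no overlap. Its mean of 8.52 ± 0.557 FPKM was 71.4% of the control mean of 11.9 ± 0.752 FPKM, and the log2 fold change was -0.44 (SE 0.06, 95% interval -0.58 to -0.30, adjusted p = 0.00181 from limma).

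Since a ratio within a library does not depend on its scaling, each pair was also compared as a ratio. H2afz over H2afv was 8.06, 8.84 and 9.62 after siSox9 and 8.17, 9.86 and 8.45 after siNC. The ranges lay on top of each other, the mean log2 ratio differed by 0.00, and differences between single libraries ran from -0.29 to 0.24 (exact two-sided permutation test, p = 1). H2afz gave 89.8% of the summed H2A.Z FPKM in both groups, and that sum was 83.6 ± 3.27 FPKM after siSox9 against 117.1 ± 8.84 FPKM after siNC.

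The promoters of this pair, which moved together, are shown from RefSeq (GRCm38.p6) as the 250 bases before the gene start, H2afz at chr3:137864237-137864486 on the plus strand and H2afv at chr11:6444444-6444693 on the minus strand. Capitals mark CCAAT and its reverse complement ATTGG, the letters of the CCAAT box found in many promoters of histone and cell cycle genes.
H2afz: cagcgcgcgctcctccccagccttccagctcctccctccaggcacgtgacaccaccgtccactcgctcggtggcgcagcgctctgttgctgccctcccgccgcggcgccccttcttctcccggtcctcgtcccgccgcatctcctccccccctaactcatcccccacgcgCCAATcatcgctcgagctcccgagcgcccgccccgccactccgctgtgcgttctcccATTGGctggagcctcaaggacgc
H2afv: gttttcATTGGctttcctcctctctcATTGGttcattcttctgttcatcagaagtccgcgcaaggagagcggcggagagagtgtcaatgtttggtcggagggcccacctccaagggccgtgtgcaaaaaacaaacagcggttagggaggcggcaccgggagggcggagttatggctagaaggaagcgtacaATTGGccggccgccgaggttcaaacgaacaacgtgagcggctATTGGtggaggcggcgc
H2afz held 2 matches and H2afv 4. A promoter was found for 8 of the 9 members, and 5 of these 8 held a match (H2afz, H2afv, H2afj, H3f3a and H3f3b), as did 33.8% of 32851 RefSeq promoters. The 5 with a match included 3 genes that fell, among them H3f3b, and 2 that did not pass the test, and H2afy2 and H1f0 fell with no match; no association was tested.

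Of the macroH2A genes, H2afy2 showed the largest fall of the 9. H2afy2, which encodes macroH2A2, lies on the minus strand at chr10:61738665-61784147 and was at 5.61, 5.67 and 5.64 FPKM after siSox9 against 9.18, 9.01 and 8.53 FPKM after siNC. The siSox9 libraries lay within a very narrow band below all siNC libraries. The mean of 5.64 ± 0.0276 FPKM was 63.3% of the control mean of 8.91 ± 0.339 FPKM, with a log2 fold change of -0.58 (SE 0.04, 95% interval -0.67 to -0.49, adjusted p = 0.000128 from limma), and 1.62% of all genes tested had a lower one. The reads behind it were 293 to 314 per siSox9 library and 461 to 496 per siNC library, so counting error alone is larger than the SD of the siSox9 values.

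H2afy, which encodes macroH2A1, the more widely expressed form, lies on the minus strand at chr13:56073619-56136361 and was at 16.0, 14.4 and 14.1 FPKM after siSox9 and 14.2, 17.9 and 18.0 FPKM after siNC. The groups overlapped because siNC replicate 1 was near the lower end of the siSox9 libraries. The log2 fold change was -0.16 (SE 0.09, 95% interval -0.37 to 0.06, adjusted p = 0.243 from limma). Without siNC replicate 1 it was -0.26 with an adjusted p of 0.0159 from limma.

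H2afy over H2afy2 was 2.86, 2.54 and 2.51 after siSox9 and 1.55, 1.99 and 2.11 after siNC. All siSox9 ratios were higher, by 0.49 in mean log2 ratio, with differences between single libraries from 0.25 to 0.88 (p = 0.1 by an exact permutation test, two-sided, which with 3 against 3 cannot give less, and 0.15 adjusted over the 3 pairs). H2afy gave 72.4 ± 1.43% of the summed macroH2A FPKM after siSox9 and 65.1 ± 3.77% after siNC. The share depends on the exon lengths used, while the difference between groups in the log2 ratio does not.

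**Figure D2:**
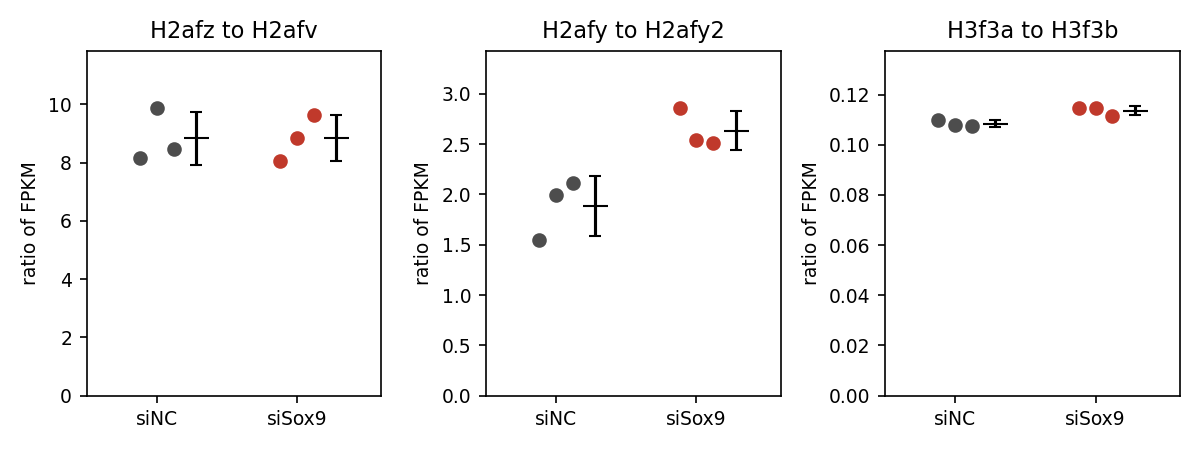
Ratio of FPKM between the 2 genes of each pair (vertical axes, each from 0) in the 3 siNC (grey) and 3 siSox9 (red) libraries, with the mean ± SD as a black bar. The H2A.Z ratios overlap around 8.8, while the macroH2A and H3.3 ratios are higher in all siSox9 libraries.

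The H3.3 genes had small differences. H3f3b, the main H3.3 gene here, lies on the minus strand at chr11:116021912-116027962 and was at 179, 179 and 184 FPKM after siSox9 against 191, 202 and 199 FPKM after siNC, with no overlap. The mean of 180.7 ± 3.06 FPKM was 91.6% of the control mean of 197.4 ± 5.33 FPKM, with a log2 fold change of -0.13 (SE 0.03, 95% interval -0.20 to -0.05, adjusted p = 0.0228 from limma). This call did not hold in 7 of 14 other settings: after rescaling to TPM the log2 fold change was -0.10 with an adjusted p of 0.11 from limma, after median centring it was -0.10 with 0.0587, without a minimum level it was -0.13 with 0.0634, and leaving out siSox9 replicate 1, siSox9 replicate 2, siNC replicate 2 or siNC replicate 3 gave adjusted p-values of 0.0787, 0.0921, 0.0675 and 0.0801.

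H3f3a, on the minus strand at chr1:180800832-180813943, was at 20.5 FPKM in each siSox9 library and at 21.02, 21.8 and 21.3 FPKM after siNC. The groups did not overlap, but the gap was small: the mean was 95.9% of control, and the log2 fold change of -0.06 (SE 0.03, 95% interval -0.12 to 0.01) did not pass the test (adjusted p = 0.174 from limma). H3f3a over H3f3b was 0.115, 0.114 and 0.111 after siSox9 against 0.110, 0.108 and 0.107 after siNC, higher in every siSox9 library by 0.07 in mean log2 ratio (exact two-sided permutation test, p = 0.1, adjusted 0.15 over the 3 pairs). Both genes together gave 201.2 ± 3.08 FPKM after siSox9 and 218.7 ± 5.69 FPKM after siNC, or 92.0% of control.

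H1f0, the linker histone gene, fell. It lies on the plus strand at chr15:79028212-79030498 and was at 31.1, 32.7 and 29.6 FPKM after siSox9 against 36.4, 37.6 and 35.8 FPKM after siNC. Every siSox9 library was below every siNC library. The mean of 31.1 ± 1.54 FPKM was 85.1% of the control mean of 36.6 ± 0.931 FPKM, with a log2 fold change of -0.23 (SE 0.04, 95% interval -0.33 to -0.13, adjusted p = 0.00731 from limma), and 13.7% of all genes tested had a lower one.

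The single-exon H2A variants did not pass the test. H2afx, on the plus strand at chr9:44334694-44336077, was at 19.1, 17.4 and 18.7 FPKM after siSox9 and 19.0, 20.0 and 19.0 FPKM after siNC. The groups overlapped, and the mean after siSox9 was 95.3% of control with a log2 fold change of -0.07 (SE 0.04, 95% interval -0.17 to 0.04, adjusted p = 0.286 from limma). The interval leaves room for a fall of 0.17 on the log2 scale but not for one the size of that of H2afz.

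H2afj, on the plus strand at chr6:136808244-136810074, was the one member with a higher mean after siSox9. H2A.J is a mammalian variant that is known to accumulate in senescent cells. Its values were 4.95, 4.67 and 4.91 FPKM after siSox9 and 3.50, 4.75 and 3.69 FPKM after siNC, so siNC replicate 2 lay among the siSox9 libraries. The log2 fold change was 0.24 (SE 0.09, 95% interval 0.03 to 0.45, adjusted p = 0.0879 from limma), and without siNC replicate 2 it was 0.35 with an adjusted p of 0.00641 from limma. It had the lowest level of the 9, with 215 to 233 recovered reads per siSox9 library and 159 to 210 per siNC library.

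**Figure D3:**
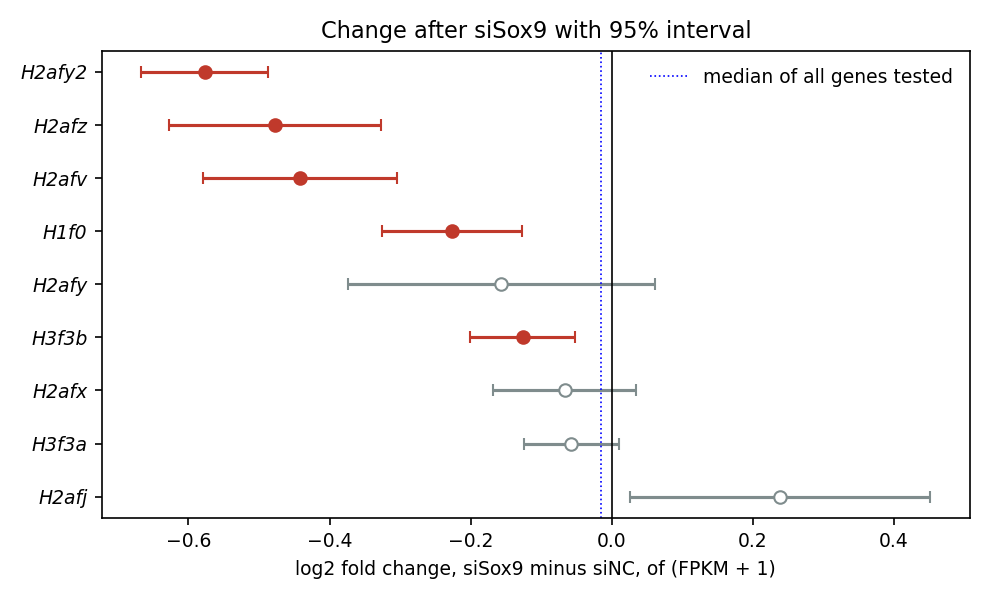
Log2 fold change of siSox9 against siNC on the log2(FPKM + 1) scale (horizontal axis) for the 9 genes, from limma, with 95% intervals as bars, filled red points where the adjusted p was under 0.05 and open grey points where it was not. H2afy2, H2afz and H2afv lie between -0.58 and -0.44, H1f0 and H3f3b lie nearer to 0, and H2afj alone lies above 0, with the median of all genes at -0.01 as a dotted line.

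**Figure D4:**
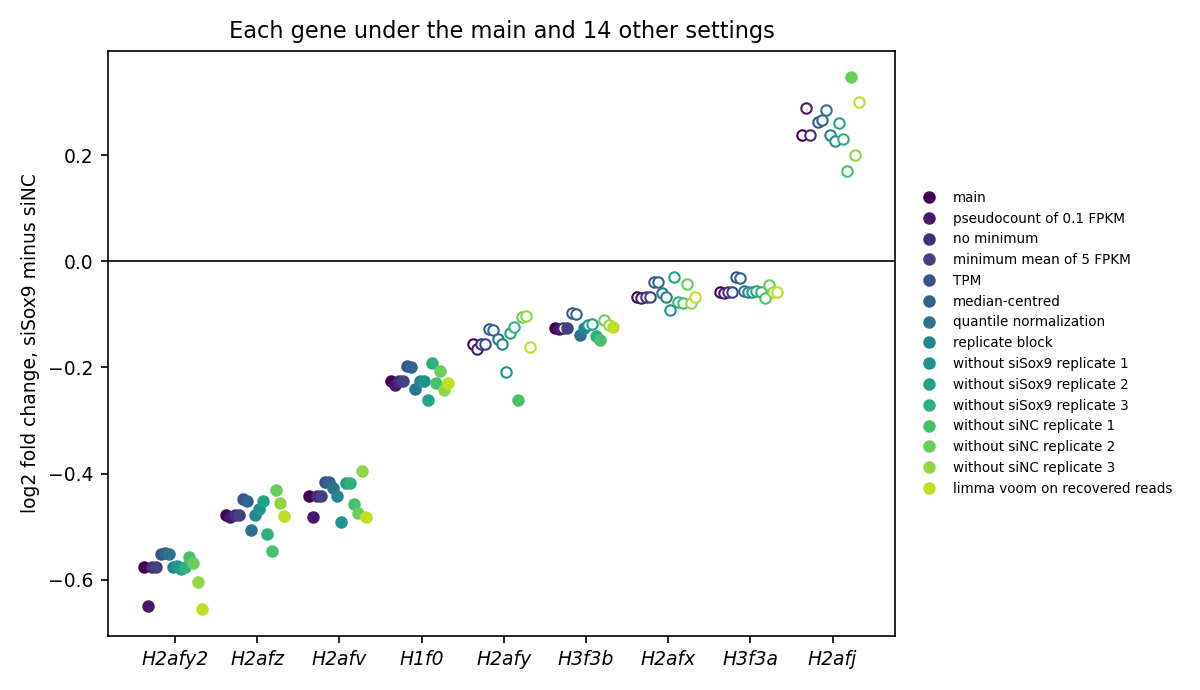
Log2 fold change of the 9 genes (vertical axis) in the reported fit and 14 other settings (colours), filled where the adjusted p was under 0.05. H2afy2, H2afz, H2afv and H1f0 are filled in every setting, H3f3b in part of them, and H2afy and H2afj in 1 setting each, and no gene changes side of 0.

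The genes that place, exchange or read these variants were counted from lists of known factors, to be read against the 17.6% of all genes tested that were called lower and the 12.8% called higher. For H3.3 deposition, which covers the HIRA complex and the DAXX and ATRX pair, 0 of 7 genes passed the test and the median log2 fold change was 0.01; 1 gene, the HIRA complex subunit Ubn2, was called higher after quantile normalization and with limma voom on recovered reads. For H2A.Z exchange, which covers the SRCAP, TIP60 and INO80 complexes, 5 of 21 tested genes fell and 0 rose, with a median of -0.04, so the share that fell was near that over all genes. The 5 were Anp32e, a chaperone that removes H2A.Z from nucleosomes, at -0.39 (adjusted p = 0.00462 from limma), the TIP60 complex subunits Epc1 at -0.19 and Epc2 at -0.16, and Ruvbl2 and Mbtd1. After rescaling to TPM 1 of the 21 was called, and leaving out siSox9 replicate 2 or 3, or siNC replicate 2 or 3, left 3, as did testing without a minimum level. With limma voom on recovered reads 6 of 20 fell. Anp32e was at 16.9, 17.3 and 15.2 FPKM after siSox9 and 22.5, 23.1 and 20.1 FPKM after siNC, with no overlap between the groups.

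For H2A.X phosphorylation and its readout, 4 of 13 tested genes fell and 1 rose, with a median of -0.09. Over all genes tested 17.6% were called lower and 12.8% higher. Taken in either direction the tally was near the 30.4% over all genes, while the share that fell was above 17.6%, from few genes. The repair gene Brca1 was at a log2 fold change of -0.33, Mdc1, which binds phosphorylated H2A.X, at -0.25, and Trp53bp1, another reader of damaged chromatin, at -0.13, while Eya3, a phosphatase that acts on H2A.X, was at 0.16; Baz1b, a kinase of H2A.X, was the other gene that fell. These calls were not stable: 1 of the 13 fell and 0 rose after rescaling to TPM, 2 fell and 2 rose after median centring, leaving out any 1 siSox9 library left 1 that fell, leaving out any 1 siNC library left 2, and without a minimum level 0 of 15 were called. With limma voom on recovered reads 5 of the 13 fell and 2 rose.

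Replication-coupled chaperones, which handle histones made in S phase, were listed together with general histone chaperones. Of these 10 genes 6 were lower and 0 higher, with a median of -0.21. The 6 were Chaf1a, Chaf1b, Asf1b, Nasp, Ssrp1 and Hjurp. Chaf1a, a subunit of the CAF-1 complex, was at -0.56 (adjusted p = 0.000235 from limma), Asf1b at -0.41 and Nasp, a chaperone of free H3 and H4, at -0.40. The count was 6 in each of the 6 fits that left out 1 library, 5 of 10 with TPM, 5 of 9 with a minimum of 5 FPKM and 4 of 7 with limma voom on recovered reads. For processing of replication-dependent histone mRNA 3 of 10 fell, with Eri1 at -0.25, Casp8ap2 at -0.18 and Cstf2 at -0.17. This count was 1 with TPM, with quantile normalization, without siSox9 replicate 1 or 3 and without a minimum level. It was 0 without siSox9 replicate 2 or siNC replicate 2. It stayed at 3 with another pseudocount, median centring or a replicate block, and was 4 without siNC replicate 1 and with limma voom on recovered reads. Of 10 other histone variants 7 were in the table and 2 were tested, and both fell, the centromeric H3 Cenpa at -0.60 (adjusted p = 0.000338 from limma) and Hist3h2ba at -0.37; 1 of these was called without siSox9 replicate 2 or 3 or siNC replicate 2.

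S phase and division markers moved with the siRNA as well. All 20 tested were lower, with a median log2 fold change of -0.62, among them Rrm2 at -1.09, Plk1 at -0.82 and Mki67 at -0.78 (adjusted p = 6.03e-05, 0.000209 and 8.27e-05 from limma). The count was 19 of 20 without a minimum level and without siSox9 replicate 2, and 16 of 16 with a minimum of 5 FPKM. It was 20 in the other settings. The leukocyte markers summed to 94.3 to 103.9 FPKM after siSox9 and 82.0 to 89.5 FPKM after siNC, mostly from Lyz2, which was called higher. It was the only 1 called of 3 leukocyte markers tested, and the groups overlapped for Ptprc, Cd68 and Adgre1. Markers of endothelium summed to 2.76 to 2.99 against 3.15 to 4.01 FPKM. Those of fibroblasts, mostly Col1a1, summed to 6.24 to 7.76 against 7.72 to 8.79 FPKM, with Dcn under 0.1 FPKM throughout. In each of these lists 1 gene was tested and 0 were called. Pecam1, Emcn and Pdgfrb were lower in every siSox9 library, and the groups overlapped for the other genes, among them Kdr and Col1a1. Whether the mix of cells differed was not tested. The part of these genes in the differences of the histone variants was not tested.

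**Figure D5:**
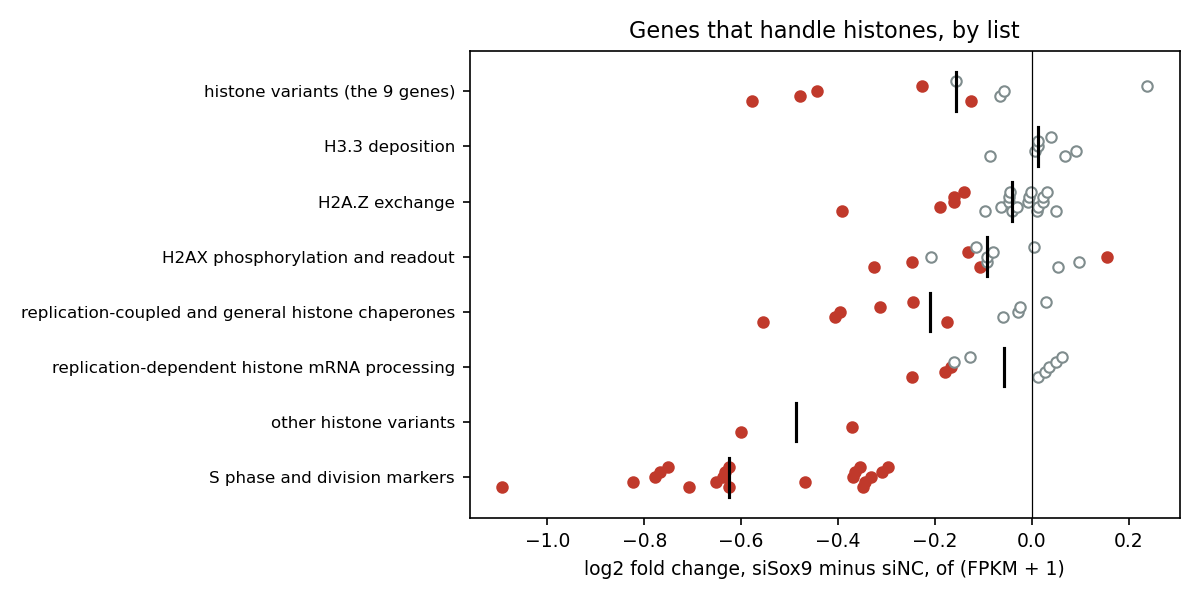
Log2 fold change of siSox9 against siNC on the log2(FPKM + 1) scale (horizontal axis) for each tested gene of the 9 histone variants and 7 lists (rows), filled red where the adjusted p from limma was under 0.05 and open grey where not, with a black line at each list's median; vertical offsets within a row have no meaning. The 20 S phase and division markers all lie below 0, with a median of -0.62, and the 7 H3.3 deposition genes lie around 0.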

How the data were processed

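The deposited table holds FPKM, computed by the authors for each gene in each library from Illumina reads and not scaled further. The submitters' processing notes name HISAT2 2.1.0, Bowtie2 2.2.3, TopHat2 and the build mm9, with no roles; the counter and annotation are not given in the sources used here. Positions of 93.3% of the 30246 genes found in GENCODE M21 were those of GRCm38, so coordinates are given for that build. Columns named siNC were taken as the control, and those of the other siRNA as siSox9.

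From the deposited FPKM values, whole reads were recovered with M21 exon lengths (the span in the table for H1f0, 2287 bases). In each library 93.2% to 93.4% of genes came out whole within 0.02 reads. Genes whose mean over the 6 libraries reached 1 FPKM went into limma 3.58.1 (R 4.3.3, lmFit and eBayes with trend) as log2(FPKM + 1), so fold changes of low genes are understated, with Benjamini-Hochberg adjustment over all 12009 genes and no replicate block. The script was tested on simulated data. Pair ratios were compared with exact permutation tests over libraries. Named genes were the 9 members, Sox9 and up to 3 genes per direction with the largest change in each list. Members, lists and tests were chosen with earlier results of these data known. The alternatives were another pseudocount, other minimum levels, 3 other scalings, a replicate block, limma voom on recovered reads and leaving out each library.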

Additional observations from a re-analysis of the deposited data

How the results depend on the processing

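H2afz, H2afv, H2afy2 and H1f0 kept their direction and their call under all 14 alternatives, and H2afx and H3f3a were called under none. The number of members called lay between 4 and 6 and the number of all genes between 2424, without siSox9 replicate 2, and 3724, with median centring; it was 2700 without a minimum level, 2704 with a minimum of 5 FPKM, at which H2afj could not be tested, 2571 with TPM and 3720 with limma voom on recovered reads. H3f3b lost its call without a minimum level (-0.13), with TPM (-0.10) and with median centring (-0.10); leaving out 1 library gave values from -0.15 to -0.11. Leaving out 1 library gave -0.26 to -0.10 for H2afy, called without siNC replicate 1, and 0.17 to 0.35 for H2afj, called without siNC replicate 2; all genes called ranged from 2424 to 3654. The log2 ratio of H2afz to H2afv, near 0, was -0.0351 from FPKM + 1 and -0.0593 to 0.0862 on leaving out 1 library. The cause of these shifts was not tested.

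No large shared deviation between same-numbered libraries was seen: deviations from the group means correlated at 0.065, -0.050 and 0.0078. This cannot show whether same-numbered libraries were prepared together, which the labels do not say. With these numbers fitted as a block, 3262 genes were called, and 5 members, as without it. Counts limit precision most for H2afj, with 159 to 233 reads per library.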

Other observations

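The replication-dependent histone genes of the Hist1, Hist2 and Hist4 clusters encode the bulk histones. Of 56 such genes listed, 19 reached the minimum level, 7 of these were higher after siSox9 and 0 were lower, with a median log2 fold change of 0.45, against 12.8% of all genes called higher, while all 20 S phase and division markers were lower. Without a minimum level 5 of 55 were higher, and the median was 0.18. The count of higher genes was 5 without siNC replicate 3, and 5 to 9 over all alternatives, some of which tested fewer or more genes. Genes of the Hist3 cluster were left out of these counts. Hist3h2ba, listed above with the other histone variants, was lower, at -0.37 (adjusted p = 0.0181 from limma).

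The genes named next were chosen after their values were seen. Hist1h1c, which encodes the linker histone H1.2, was at 83.9, 89.9 and 87.8 FPKM after siSox9 and 60.4, 64.5 and 62.7 FPKM after siNC, higher by 0.47 on the log2 scale (limma, adjusted p = 0.000258), whereas H1f0 fell. Hist1h3b, a clustered H3 gene, was at 27.2, 27.2 and 26.0 FPKM against 11.5, 12.9 and 11.2 FPKM, higher by 1.11 on the log2 scale (limma, adjusted p = 5.94e-05), whereas H3f3a and H3f3b were at -0.06 and -0.13. Hist1h2ab at 1.11 and Hist1h4h at 0.61 were also higher. Clustered genes are near-identical to each other in part, and their mRNA mostly lacks a poly(A) tail, so their values depend on library type and read assignment, which are not given in the sources used here. The part of either in these differences was not tested.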
